A study of Homo sapiens with 12 samples.

Results

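Genes encoding collagen chains, laminin chains and integrin subunits were followed in EndoC-βH3 cells before and after senescence. They were taken by name, with earlier results of these data known, as every row of the expression table whose symbol has a set form. The forms were those of collagen (COL, number, A, number), laminin (LAMA, LAMB or LAMC with a number), integrin alpha (ITGA) and integrin beta (ITGB) genes. This gave 82 of 35337 genes, of which 44 encode collagen chains, 12 laminin chains and 26 integrin subunits. EndoC-βH3 is an established human beta-like cell line made from fetal pancreas, kept proliferating by transgenes for hTERT and the SV40 large T antigen. All libraries came from this line, which also carries the CreER recombinase. The 6 senescent libraries were from cells in which 4-hydroxy-tamoxifen (4-OHT), given for 3 weeks, activated CreER to excise both transgenes, and the 6 non-senescent libraries were from untreated control cells. The dose reads 1 mM in the labels and 1 μM in the methods. Each group had 2 libraries in batch A and 4 in batch B, as the sample titles name them. RNA was measured by CEL-seq2, which reads the 3′ end of transcripts, and the comparison asked which of these genes change when beta-like cells become senescent. Whether replicates within a batch were separate cultures is not given in the sources used here, so their spread may be partly technical. The culture plates were coated with fibronectin and an extracellular matrix preparation in both groups.

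Laminins are heterotrimers of 1 alpha, 1 beta and 1 gamma chain and, with type IV and type XVIII collagens and nidogens, build the basement membrane, the thin sheet that cells such as beta cells rest on. Fibril-forming collagens make the interstitial matrix, and fibril-associated collagens sit on the surface of such fibrils. Integrins are alpha-beta receptors that bind these proteins: beta 1 joins most alpha subunits that recognise collagen or laminin, and alpha V receptors recognise the RGD motif of vitronectin, fibronectin and related proteins. In the islet the basement membrane around beta cells is made mostly by vascular endothelial cells, and beta cells touch it through integrins.

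The sequences upstream of RefSeq starts of the genes whose values changed most clearly are given first, so that the transcripts described later can be placed on the genome. They come from RefSeq on GRCh38.p14, in which 58 of the 82 genes matched an entry. They cover the 250 bases before the RefSeq start site, 5′ to 3′ on the strand of the gene. Where an annotated exon comes nearer, the window was shortened to leave it out, and the bases further from the start were kept. The gene positions printed later are from GENCODE, whose spans can begin further upstream. The COL9A2 window lies inside the GENCODE span of its gene, which reaches 40317813. The window of the second COL18A1 start and the interval before COL4A2 also lie inside such spans. Capitals mark the GC box (CCGCCC or GGGCGG), the CCAAT box (CCAAT or ATTGG) and the TATA box (TATAAA or TTTATA), searched on both strands. COL18A1 is shown with both of its RefSeq starts, LAMC1 and ITGB5 as genes that rose, and COL9A2 and LAMB2 as genes that fell. ITGB5 has 3 RefSeq starts and is shown at its start furthest upstream. The 126 bases between COL4A1 and COL4A2 are given because these neighbours are read from them in opposite directions. This interval is printed on the strand of COL4A2.
COL18A1, chr21:45404915-45405164 (plus strand): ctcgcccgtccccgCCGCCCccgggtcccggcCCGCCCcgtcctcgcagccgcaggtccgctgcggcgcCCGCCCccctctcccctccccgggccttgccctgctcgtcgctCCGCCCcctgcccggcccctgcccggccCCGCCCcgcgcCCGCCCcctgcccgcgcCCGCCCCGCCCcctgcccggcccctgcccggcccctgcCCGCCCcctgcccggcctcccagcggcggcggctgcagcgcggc
COL18A1, chr21:45455272-45455521 (plus strand): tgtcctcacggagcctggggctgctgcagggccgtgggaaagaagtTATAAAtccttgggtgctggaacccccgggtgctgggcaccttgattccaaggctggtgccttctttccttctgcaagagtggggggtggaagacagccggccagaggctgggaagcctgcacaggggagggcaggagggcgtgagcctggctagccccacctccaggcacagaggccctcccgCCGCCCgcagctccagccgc
LAMC1, chr1:183023170-183023419 (plus strand): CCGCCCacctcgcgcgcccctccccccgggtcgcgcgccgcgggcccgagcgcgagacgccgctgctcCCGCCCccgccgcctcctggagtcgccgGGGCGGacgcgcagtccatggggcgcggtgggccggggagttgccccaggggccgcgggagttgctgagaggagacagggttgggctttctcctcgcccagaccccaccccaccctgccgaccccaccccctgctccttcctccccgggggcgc
ITGB5, chr3:124901419-124901668 (minus strand): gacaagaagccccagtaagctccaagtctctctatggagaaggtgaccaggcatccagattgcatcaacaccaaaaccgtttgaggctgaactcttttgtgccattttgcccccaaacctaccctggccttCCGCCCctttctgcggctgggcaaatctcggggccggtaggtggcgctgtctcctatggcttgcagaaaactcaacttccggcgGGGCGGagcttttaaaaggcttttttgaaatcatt
COL9A2, chr1:40317389-40317536 (minus strand): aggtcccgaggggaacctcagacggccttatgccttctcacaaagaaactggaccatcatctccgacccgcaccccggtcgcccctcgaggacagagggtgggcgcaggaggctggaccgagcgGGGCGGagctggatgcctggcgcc
LAMB2, chr3:49133119-49133300 (minus strand): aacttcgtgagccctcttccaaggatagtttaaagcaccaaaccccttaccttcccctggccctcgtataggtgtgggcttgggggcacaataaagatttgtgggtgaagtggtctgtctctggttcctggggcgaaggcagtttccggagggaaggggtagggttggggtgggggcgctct
COL4A1 to COL4A2, chr13:110307158-110307283 (plus strand): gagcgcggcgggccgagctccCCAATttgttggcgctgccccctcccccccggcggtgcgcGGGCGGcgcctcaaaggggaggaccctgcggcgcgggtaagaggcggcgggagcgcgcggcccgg

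The COL18A1 window at the first start held 9 GC boxes, some of them overlapping, and that at the second start held 1 GC box and 1 TATA box. LAMC1 had 3 GC boxes, ITGB5 had 2 and COL9A2 had 1, and none of the searched motifs was in the 182 bases of LAMB2. The interval between the RefSeq starts of COL4A1 and COL4A2 had 1 GC box and 1 CCAAT box. Among 35116 windows of 250 bases in the table, 42.6% held a GC box, 32% a CCAAT box and 10.7% a TATA box. In windows shortened to 182, 148 and 126 bases the GC box shares were 31.6%, 25.5% and 34.6%, the last of these counted nearest the start. A CCAAT box was in 21.1% of the windows of 126 bases. Of the 58 genes, 30 held a GC box, 12 a CCAAT box and 6 a TATA box. An E2F consensus (TTTCCCGC, TTTCGCGC, TTTGCCGC or TTTGGCGC, on either strand) was in 0 of the 58, against 2.79% of all windows, and a p53 half-site was in 1, against 5.57%. These are matches of letters and describe no binding.

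Most of these genes were rarely read. The 12 libraries held 4672924 to 17106776 reads, and those of batch A (8873569 to 17106776) were deeper than those of batch B (4672924 to 7063264). A gene without reads in a library could still hold up to 3 reads there, which is 0.175 to 0.642 ppm of all reads and covers counting error only. Of the 82 genes, 37 reached a mean of 5 normalised read counts (reads divided by 1 size factor per library) and were tested, 38 had reads below that level, and 7 had none in any library. The tested genes were 16 collagens, 8 laminins and 13 integrins. The genes with no reads were COL2A1, the main cartilage collagen, COL13A1 and COL26A1, ITGA5, the alpha subunit of the fibronectin receptor, ITGB4, the partner of alpha 6 in hemidesmosomes, and ITGB6 and ITGB7. Genes on the other strand overlap the 3′ ends of ITGA5 (GPR84-AS1), ITGB4 (GALK1) and ITGB7 (ZNF740), and the effect of this overlap on their counts was not tested. The 38 genes below the level had 1 to 62 reads each over all libraries, 550 together, and include COL1A2 and COL4A1 with 26 reads each, LAMA2 with 8, LAMA3 with 10, ITGB3 with 1 and ITGB2 with 1. By family they were 25 collagens with 374 reads, 9 integrins with 143 and 4 laminins with 33, and the most read were COL11A2 with 62, COL7A1 with 56, ITGA2B with 40, ITGA8 with 34, ITGAX with 32 and COL6A2 with 31. Differences in most of these genes were not detectable at this depth. In a fit without the filter, COL19A1, LAMA3 and LAMB4, with 21, 10 and 8 reads, were called lower in senescent cells.

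**Figure D1:**
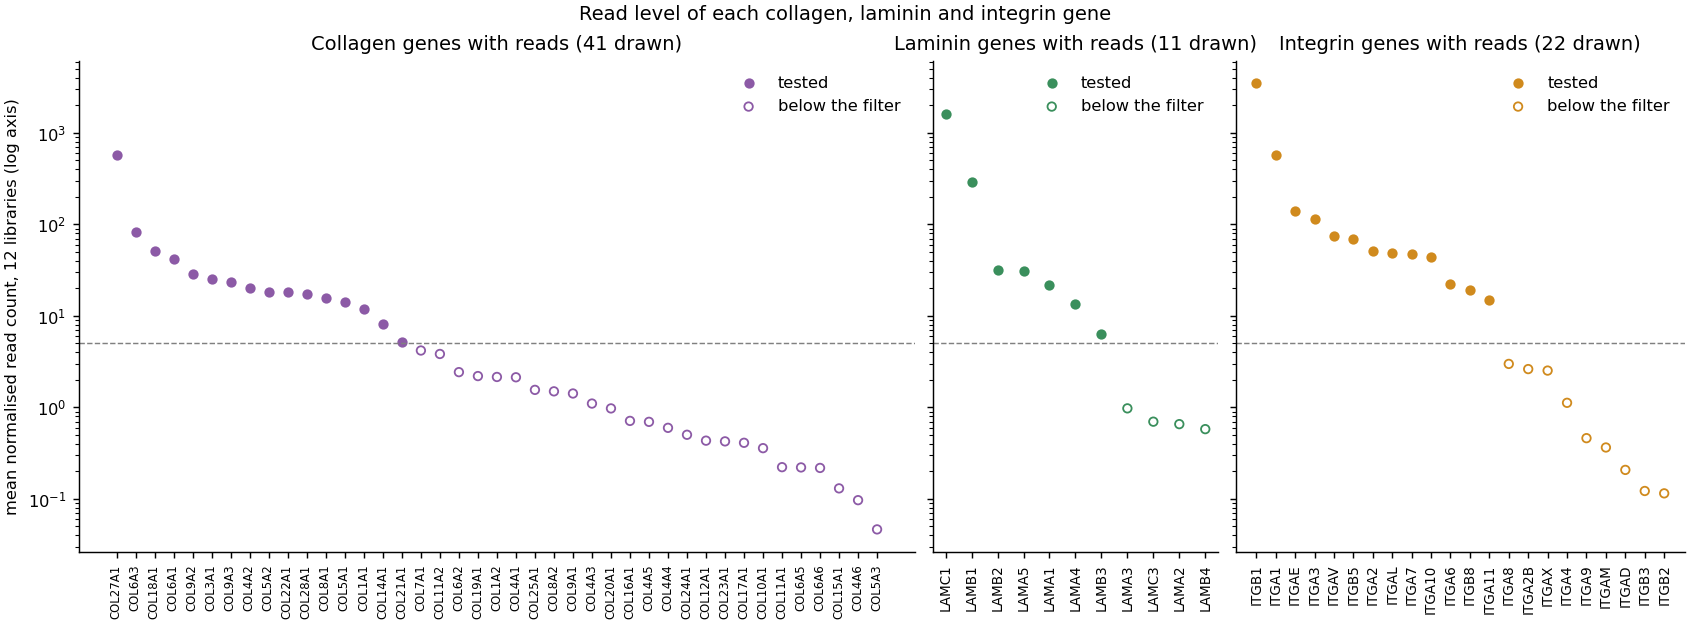
Mean normalised read count over 12 libraries (vertical log axis) of 74 of the 75 genes with reads, ordered by level within collagens, laminins and integrins. Filled points were tested and open points fell under the mean of 5 shown by the dashed line; COL27A1, LAMC1 and ITGB1 lead their families.

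Within each family a few genes supplied most reads. ITGB1, the common beta subunit, made up 74.3% of the 64477 integrin reads, and ITGA1, a collagen-binding alpha subunit, 12.7%. LAMC1, the gamma chain of most laminins, made up 76.5% of 23798 laminin reads and LAMB1 another 16.8%. COL27A1, a fibril-forming collagen best known from cartilage, made up 63.2% of 13716 collagen reads. Because reads come from the 3′ end, these are shares of reads and depend on how well each 3′ end is captured. The laminin family took 0.0123% and 0.0127% of all reads in the non-senescent libraries of batch A and 0.0146% and 0.0158% in the senescent ones. In batch B its share was 0.0225% to 0.0263% in non-senescent and 0.0398% to 0.0487% in senescent cells. The laminin share was thus above that of every non-senescent library of the same batch in each senescent library. The integrin share in batch A was 0.0686% and 0.0746% in non-senescent and 0.0661% and 0.0697% in senescent libraries, which overlapped. In batch B it was 0.0492% to 0.0604% in non-senescent and 0.0649% to 0.0733% in senescent libraries, with no overlap. Collagen shares in batch A were 0.0166% and 0.0176% in non-senescent and lower, at 0.014% and 0.0151%, in senescent libraries. In batch B they were 0.0104% to 0.0123% in non-senescent and 0.0112% to 0.0161% in senescent libraries, and the groups overlapped.

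Senescence changed 14 of the 37 tested genes, in both directions. A gene was called where the adjusted p was under 0.1 and the fold over 1.5 in a limma fit of log2(normalised read count + 1) with batch as a term. By this rule 8 genes (21.6%) were higher in senescent cells, namely COL18A1, LAMB3, ITGB5, LAMA5, COL4A2, COL5A1, LAMC1 and ITGAV, where 11.6% of all 13847 tested genes were called higher. Another 6 genes (16.2%) were lower, namely COL9A2, LAMB2, COL9A3, COL22A1, COL21A1 and COL28A1, against 11.8% of all tested genes. LAMB3 and COL21A1 reached the mean of 5 only through the group in which they were higher, so their calls follow in part from the filter. Without these genes 7 of 35 (20%) were higher and 5 (14.3%) lower. The median log2 fold change of the 37 genes was -0.02, beside 0.012 for all tested genes, and their median SE was 0.28. The families split differently: collagens had 3 higher and 5 lower of 16, laminins 3 higher and 1 lower of 8, and integrins 2 higher and 0 lower of 13. The sign in batch A and in batch B was the same for 26 of the 37 genes and for 13 of the 14 called ones, the exception being LAMA5. The senescent libraries were all higher than the non-senescent ones within both batches for 9 genes (24.3%) and all lower for 4 (10.8%), where 11.9% of all tested genes were separated upwards and 11.9% downwards. In bulk RNA, fewer cells that express a gene and less RNA of it per cell cannot be told apart. Scaling every library to the same total moved the median of all genes from 0.012 to -0.09 and the share of higher genes among all calls from 49.6% to 36.9%. The counts here then became 7 higher and 7 lower, without ITGAV and with COL8A1. With the batch term left out, 4 were higher and 3 lower, and LAMC1, ITGAV, LAMA5, COL4A2, COL22A1, COL21A1 and COL28A1 were no longer called.

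**Figure D2:**
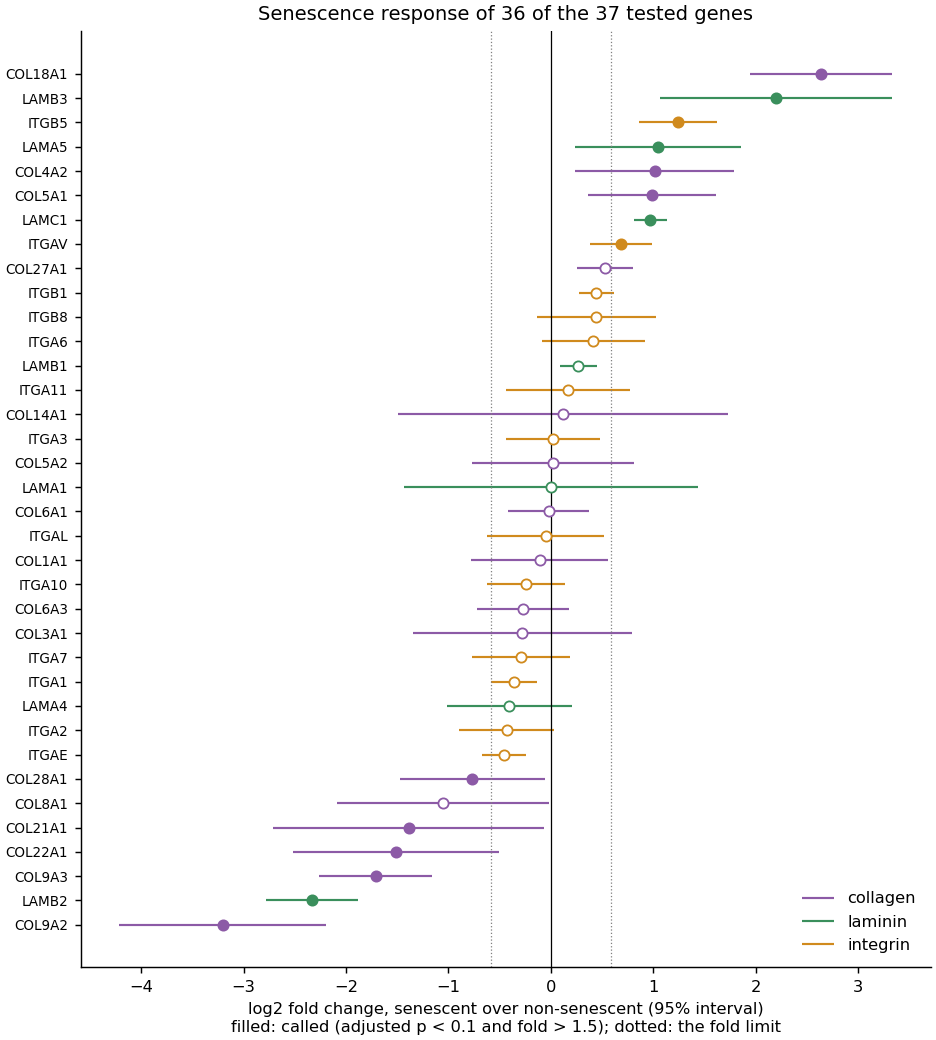
Log2 fold change of 36 of the 37 tested genes, senescent over non-senescent (horizontal axis), with 95% intervals from the limma fit on 6 libraries per group. Filled points are the 8 genes called higher and 6 called lower, open points were not called, and dotted lines mark a fold of 1.5 either way.

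The chains of laminin moved in different directions. LAMC1, with far more reads than any other laminin gene, was higher in every senescent library than in the non-senescent ones of its batch. LAMB2, the beta chain that replaces beta 1 in several basement membrane laminins, fell by 2.33 on the log2 scale, the largest fall among the tested laminins. LAMB1, the more widely used beta chain, moved by less than the fold limit.

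LAMC1 lies on chromosome 1 (183023420 to 183145592, GRCh38). LAMC1 stood at 456 and 443 normalised read counts in the non-senescent libraries of batch A and at 786 and 765 in the senescent ones. Its values in batch B were 1224, 1407, 1381 and 1423 in non-senescent and 2933, 3197, 2549 and 2720 in senescent cells. Senescent values were above the non-senescent ones of the same batch, with no overlap, and batch B was above batch A throughout. The log2 fold change was 0.97 ± 0.08 (SE, limma adjusted p 2.14e-08), with 0.79 for batch A and 1.07 for batch B. Across batches its groups overlapped.

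LAMB2 lies on chromosome 3 (49121114 to 49133118). Batch A gave 79.5 and 75.5 normalised read counts of LAMB2 in non-senescent and 14.8 and 13.9 in senescent cells. Batch B gave 28.6, 41.3, 57 and 43.5 of LAMB2 in non-senescent and 8.48, 7.35, 8.01 and 6.23 in senescent cells. Every senescent library was below every non-senescent library, across batches too. LAMB2 changed by -2.33 ± 0.21 (SE, limma adjusted p 1.53e-07), and the change was -2.35 for batch A and -2.32 for batch B.

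LAMB1 (chromosome 7, 107923799 to 108003213) was the second most read laminin gene. The non-senescent libraries held 266 and 285 normalised read counts of LAMB1 in batch A and 247, 260.2, 260.1 and 277 in batch B. The senescent libraries held 356 and 310.4 of LAMB1 in batch A and 348, 321, 278 and 316 in batch B. Within each batch all senescent values were higher, in batch B by as little as 278.1 against 277.1. The log2 fold change of LAMB1 was 0.27 ± 0.08 (SE, limma adjusted p 0.0166), with a 95% interval of 0.09 to 0.45 that stays under the fold limit of 0.585. DLD, whose 3′ end overlaps that of LAMB1 on the other strand, had a log2 fold change of 0.28, and use of strand in counting is not given in the sources used here.

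LAMB2 was read at 10.3% to 22.9% of all laminin beta-chain reads (LAMB1, LAMB2, LAMB3 and LAMB4) in the 6 non-senescent libraries. In the senescent libraries the share of LAMB2 was 1.88% to 4.24%. The lowest non-senescent share rested on 19 of 184 reads (95% Wilson interval 6.71% to 15.6%), and the highest senescent share on 23 of 543 (2.84% to 6.28%), so the beta-chain reads of every senescent library held a smaller part of LAMB2. LAMB3, the beta chain of an epithelial laminin, was the least read of the tested laminins. It had 0 to 5 reads per library in non-senescent cells and 6 to 17 in senescent cells. As normalised read counts the values were 1.11 and 0.795 in non-senescent and 3.59 and 3.62 in senescent libraries of batch A, and 0 to 6.88 and 8.72 to 18.3 in batch B. The groups were thus apart within each batch and overlapped across batches. The log2 fold change of 2.20 ± 0.54 (SE) is given as a description, since the mean of LAMB3 was 1.88 in non-senescent cells, under the filter. The alpha 3 chain LAMA3 had 10 reads in all.

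**Figure D3:**
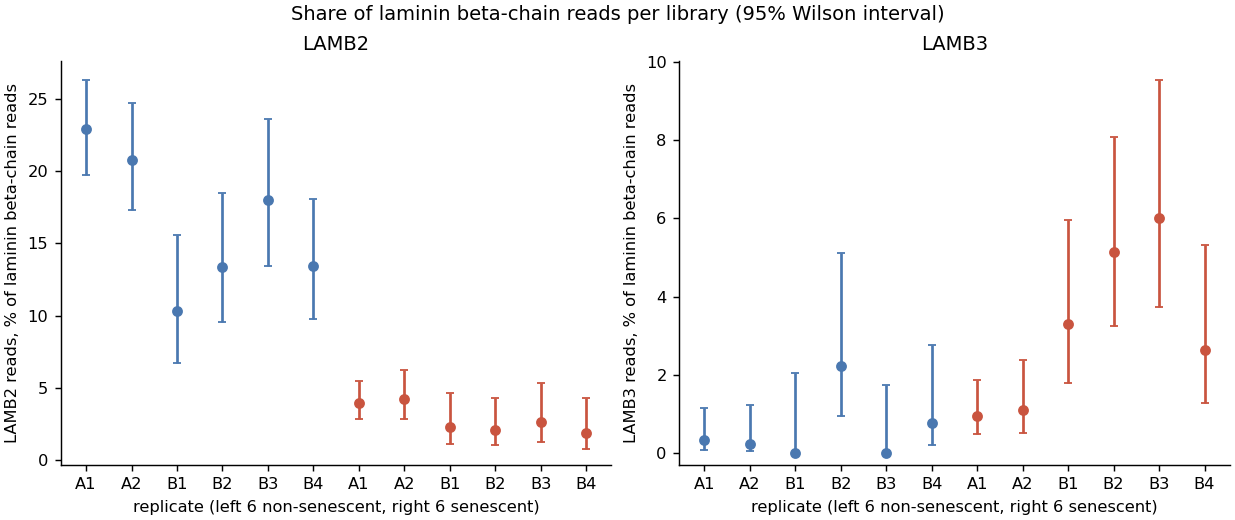
LAMB2 and LAMB3 reads as a percentage of all laminin beta-chain reads in each of 12 libraries, with 95% Wilson intervals that cover counting error only. Blue points are non-senescent and red points senescent libraries: LAMB2 falls from 10.3 to 22.9% to 1.88 to 4.24%, while LAMB3 stays at or under 6.02% in all libraries.

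Of the laminin alpha chains, LAMA1, LAMA4 and LAMA5 were tested and 1 was called. LAMA5, the alpha chain of the main laminins of adult basement membranes, was called higher, with a rise in batch B and overlapping groups in batch A. LAMA5 stood at 25 and 33.4 normalised read counts in the non-senescent libraries of batch A and at 18.9 and 29.6 in the senescent ones. Its values in batch B were 28.6, 17.9, 5.84 and 12.4 in non-senescent and 73.9, 37.8, 56.1 and 34.9 in senescent cells. In batch A the groups overlapped, and in batch B all senescent values were above the non-senescent ones. The log2 fold change of LAMA5 (chromosome 20, 62307955 to 62367312) was 1.05 ± 0.39 (SE, limma adjusted p 0.0397), with -0.28 for batch A and 1.71 for batch B, and the interaction of batch and group had an adjusted p of 0.158 in limma. ADRM1, which overlaps the 3′ end of LAMA5 on the other strand, moved the opposite way (-0.59 ± 0.12 SE). LAMA4 (-0.41 ± 0.29 SE) and LAMA1 (0.0032 ± 0.679 SE) were not called, and the 95% interval of LAMA1 reached from -1.43 to 1.44.

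Among basement membrane collagens, COL18A1 rose most. Type XVIII collagen, a multiplexin that carries heparan sulfate chains and whose C-terminal fragment is endostatin, is encoded on chromosome 21 (45405165 to 45513720). The non-senescent libraries held 20.01 and 18.3 normalised read counts of COL18A1 in batch A and 13.6, 12.4, 5.84 and 8.7 in batch B. The senescent libraries held 51.2 and 38.7 of COL18A1 in batch A and 118, 85, 113 and 125 in batch B. The senescent libraries of batch B were highest, and the groups did not overlap in either batch or across them. The mean of COL18A1 went from 13.1 ± 5.43 to 88.4 ± 36.5 (SD, n = 6). This is a log2 fold change of 2.64 ± 0.33 (SE, limma adjusted p 6.41e-06), the largest rise among the 37 genes, and the rise was 3.37 in batch B against 1.18 in batch A. This difference between the batches, 2.19 ± 0.46 (SE), passed the interaction test (limma adjusted p 0.0198), which 2 of the 37 genes (5.41%) and 4.21% of all tested genes did. SLC19A1 overlaps the 3′ end of COL18A1 on the other strand and fell (-0.79 ± 0.29 SE). COL15A1, the other multiplexin, had 3 reads.

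Type IV collagen, the network of the basement membrane, was read at low levels. COL4A2 rose with a log2 fold change of 1.02 ± 0.37 (SE, limma adjusted p 0.0376) on 213 reads in all, from 0 and 4.45 normalised read counts in the non-senescent libraries of batch A and 17.4 to 27.1 in those of batch B. The senescent values were 5.84 and 8.46 in batch A and 27.4 to 40.9 in batch B. They were above the non-senescent values of the same batch, narrowly so in batch B. Without non-senescent A2, the library of COL4A2 at 0, the log2 fold change was 0.61, and in batch B alone it was 0.63 and not called. COL4A1, its partner across the interval printed above, had 26 reads, and COL4A3 to COL4A6 had 2 to 14 each. COL8A1, a network-forming collagen of vessels and the eye, had a log2 fold change of -1.05 ± 0.49 (SE) and missed the limit with an adjusted p of 0.102 in limma.

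Among the collagens that sit on other fibrils, the type IX chains COL9A2 and COL9A3 fell. Of 10 fibril-associated collagens, 5 were tested and 4 were called, all lower, beside 11.8% called lower over all tested genes, COL14A1 being the exception (0.12 ± 0.77 SE). Without COL21A1, which passed the filter through the non-senescent libraries, 3 of 4 were called. Without the batch term the calls of COL21A1 and COL22A1 were lost, and in batch B alone COL22A1 was not called and COL21A1 was under the filter. COL9A2 and COL9A3 encode chains of type IX collagen, which coats the type II fibrils of cartilage, whereas COL2A1 itself had no reads and COL9A1, the third chain, had 17.

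COL9A2 is on chromosome 1 (40300489 to 40317813). Batch A gave 76.1 and 83.4 normalised read counts of COL9A2 in non-senescent and 12.1 and 8.46 in senescent cells. Batch B gave 30.1, 52.3, 35.1 and 29.8 of COL9A2 in non-senescent and 0, 14.7, 1.14 and 3.74 in senescent cells. The senescent libraries were all below the non-senescent ones, and senescent B1 had no read. COL9A2 dropped by 3.20 ± 0.48 (SE, limma adjusted p 4.73e-05) on the log2 scale, the largest fall among the 37 genes, with -2.86 for batch A and -3.37 for batch B. COL9A3 is on chromosome 20 (62816244 to 62841159). COL9A3 stood at 41.7 and 27.8 normalised read counts in the non-senescent libraries of batch A and at 5.39 and 6.04 in the senescent ones. Its values in batch B were 27.1, 31.7, 48.2 and 38.5 in non-senescent and 18.2, 10.5, 12.6 and 12.5 in senescent cells. The groups were again apart in both batches, and the senescent libraries of batch A were the lowest. Its log2 fold change was -1.71 ± 0.26 (SE, limma adjusted p 5.89e-05). TCFL5, on the other strand at the 3′ end of COL9A3, was not called (-0.22 ± 0.23 SE).

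COL22A1, a collagen of tissue junctions, fell by 1.51 ± 0.48 (SE, limma adjusted p 0.0184) on the log2 scale, with -3.14 for batch A and -0.69 for batch B. In batch B its groups overlapped, since senescent values ran from 3.64 to 31.1 normalised read counts beside 19.3 to 33.6 in non-senescent cells. COL21A1 had a log2 fold change of -1.39 ± 0.63 (SE), given as a description, and was just over the filter with 81 reads and a mean of 5.19 normalised read counts. Its mean was 8.11 over the non-senescent libraries and 2.26 in the senescent libraries. COL28A1, a collagen of the peripheral nerve, was at -0.76 ± 0.34 (SE, limma adjusted p 0.0842). These last 2 calls were the least secure: COL21A1 was kept in 3 of the 9 fits that left out 1 library and in which it passed the filter, and COL28A1 in 5 of 12.

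The fibril-forming collagens showed no common direction. COL5A1, whose chain helps start type I fibrils, rose by 0.99 ± 0.30 (SE, limma adjusted p 0.0136), from 4.52 to 16.7 normalised read counts in non-senescent cells to 14.5 to 25.2 in senescent cells, with no overlap within either batch. COL27A1 was the most read collagen (chromosome 9, 114155537 to 114312511). Batch A gave 811 and 852 normalised read counts of COL27A1 in non-senescent and 816 and 935 in senescent cells. Batch B gave 313, 326, 327 and 293 of COL27A1 in non-senescent and 441, 454, 719 and 557 in senescent cells. The groups overlapped in batch A, whereas in batch B the senescent values were all higher. COL27A1 had a log2 fold change of 0.53 ± 0.13 (SE, limma adjusted p 0.00386) and so missed the fold limit, with 0.07 for batch A and 0.76 for batch B. COL1A1 (-0.11 ± 0.32 SE), COL3A1 (-0.28 ± 0.51 SE) and COL5A2 (0.02 ± 0.37 SE) were not called, and the interval of COL3A1, -1.35 to 0.79, leaves room for sizeable changes in both directions. COL6A3, the second most read collagen and a chain of the beaded type VI filaments, is on chromosome 2 (237324003 to 237414328). The non-senescent libraries held 4.45 and 10.3 normalised read counts of COL6A3 in batch A and 157, 99.1, 101 and 194 in batch B. The senescent libraries held 6.73 and 5.44 of COL6A3 in batch A and 104, 98.7, 117 and 102 in batch B. The groups overlapped in both batches and the batches were far apart. The log2 fold change of COL6A3 was -0.27 ± 0.21 (SE, limma adjusted p 0.346), and that of COL6A1 was -0.02 ± 0.19 (SE, 95% interval -0.42 to 0.38).

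**Figure D4:**
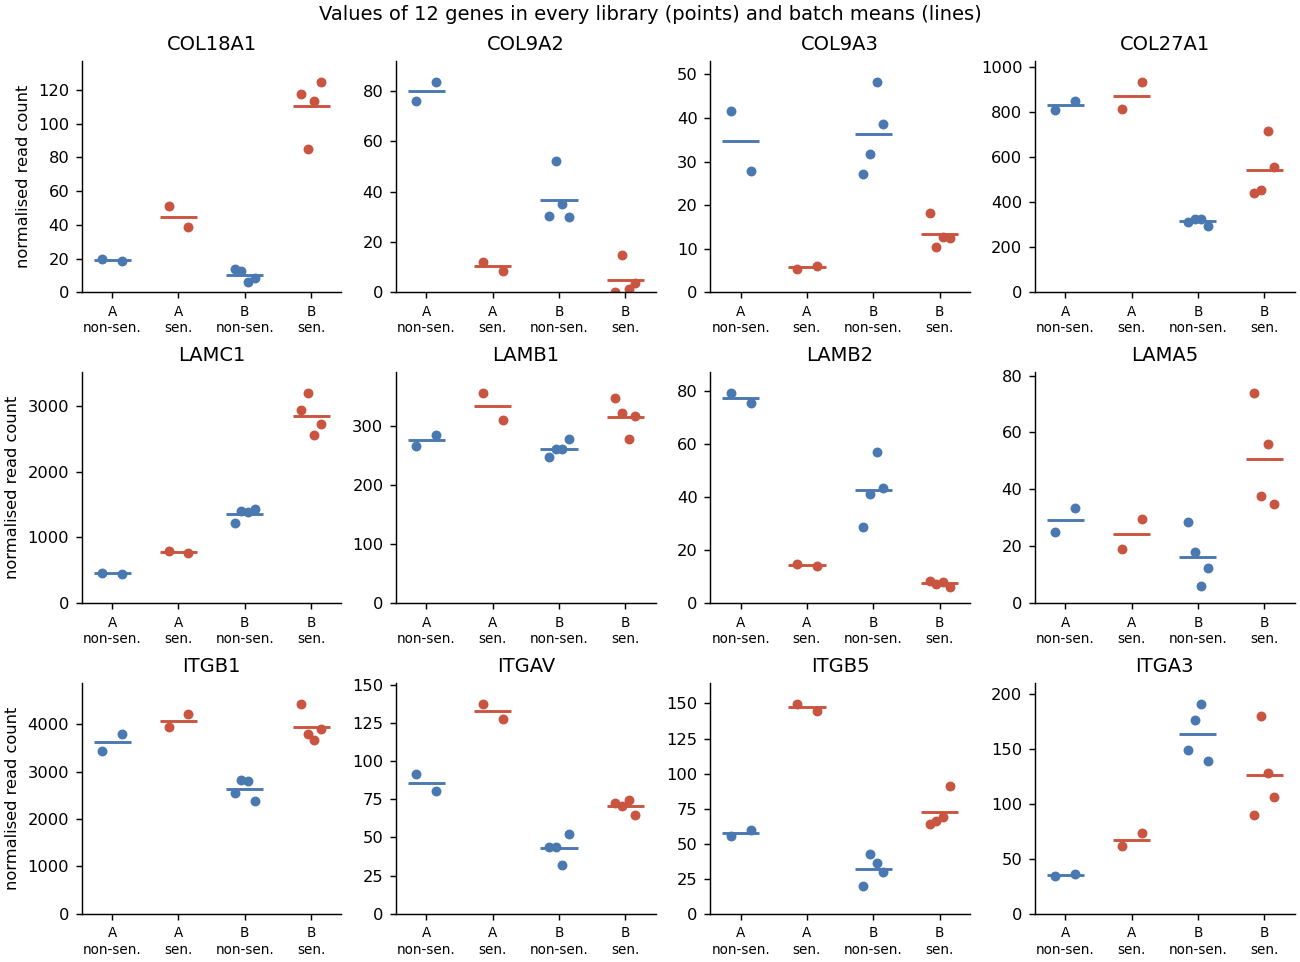
Normalised read count (vertical axes from 0) of 12 genes in each library, as points, with the mean of each batch and group as a line; blue is non-senescent, red is senescent, with 2 libraries per group in batch A and 4 in batch B. LAMC1, COL18A1, ITGAV and ITGB5 are higher in all senescent libraries of their batch, LAMB2, COL9A2 and COL9A3 lower, and ITGA3 is higher in batch A and overlaps in batch B.

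Among integrins the alpha V and beta 5 subunits, which pair to bind vitronectin, were both higher in senescent cells. ITGAV is on chromosome 2 (186590010 to 186680901). ITGAV stood at 91.7 and 80.3 normalised read counts in the non-senescent libraries of batch A and at 138 and 127 in the senescent ones. Its values in batch B were 43.7, 44.1, 32.1 and 52.2 in non-senescent and 72.7, 70.3, 74.4 and 64.8 in senescent cells. Within each batch all senescent values were higher. ITGAV rose by 0.69 ± 0.14 (SE, limma adjusted p 0.000951), with 0.62 for batch A and 0.72 for batch B, which passed the fold limit by little. ITGB5 is on chromosome 3 (124761948 to 124901418). Batch A gave 55.6 and 59.6 normalised read counts of ITGB5 in non-senescent and 149.9 and 145 in senescent cells. Batch B gave 19.6, 42.7, 36.5 and 29.8 of ITGB5 in non-senescent and 64.2, 66.1, 68.7 and 90.9 in senescent cells. The groups of ITGB5 were apart in every library, also across batches. Its log2 fold change was 1.24 ± 0.18 (SE, limma adjusted p 3.48e-05), with 1.34 for batch A and 1.19 for batch B. The other known beta partners of alpha V were ITGB8 (0.44 ± 0.28 SE, not called), ITGB3 with 1 read, ITGB6 with none, and ITGB1.

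ITGB1, on chromosome 10 (32887273 to 33005792), was the most read gene of all 82. The non-senescent libraries held 3444 and 3789 normalised read counts of ITGB1 in batch A and 2545, 2830, 2810 and 2374 in batch B. The senescent libraries held 3932 and 4209 of ITGB1 in batch A and 4435, 3802, 3665 and 3901 in batch B. Senescent values were above the non-senescent ones within each batch. The change, 0.44 ± 0.08 (SE, limma adjusted p 0.000326), passed the p limit and not the fold limit, and its interval was 0.27 to 0.62. ITGA1 is on chromosome 5 (52787916 to 52959209). Batch A gave 898 and 952 normalised read counts of ITGA1 in non-senescent and 549.9 and 698 in senescent cells. Batch B gave 579.7, 577, 429.6 and 488 of ITGA1 in non-senescent and 468, 383, 509 and 386 in senescent cells. In batch A the senescent values were lower, and in batch B the groups overlapped. ITGA1 had a log2 fold change of -0.36 ± 0.11 (SE, limma adjusted p 0.0138), again under the fold limit.

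No other integrin was called. All 4 alpha subunits that bind collagen with beta 1 were tested, and ITGA2 (-0.43 ± 0.22 SE), ITGA10 (-0.24 ± 0.18) and ITGA11 (0.17 ± 0.28) were, like ITGA1, not called. In batch A alone ITGA2 was called lower (-1.15). The 3 laminin-binding alpha subunits gave 0.03 ± 0.22 for ITGA3, 0.42 ± 0.24 for ITGA6 and -0.29 ± 0.23 for ITGA7. ITGA3 was the second gene with a batch difference. The non-senescent libraries held 34.5 and 36.6 normalised read counts of ITGA3 in batch A and 149, 176, 191 and 139 in batch B. The senescent libraries held 61.5 and 73.7 of ITGA3 in batch A and 89.7, 181, 128 and 106 in batch B. Senescent values were higher in batch A, while in batch B they ranged from below all non-senescent values to within them. The response of ITGA3 (chromosome 17, 50055968 to 50090481) was 0.90 for batch A and -0.41 for batch B, and the interaction of -1.32 ± 0.34 (SE) had a limma adjusted p of 0.0568. Of the subunits named for leukocytes, ITGAE had a log2 fold change of -0.46 ± 0.10 (SE, limma adjusted p 0.00192), under the fold limit, and ITGAL was at -0.05 ± 0.27 (SE). ITGB7 and ITGB2, the beta partners of ITGAE and ITGAL, had 0 and 1 reads. Among the 23 genes not called, the 95% interval of 4 (LAMB1, ITGA1, COL6A1 and ITGA3) lay within a fold of 1.5 either way in the fit over both batches. For ITGA3 that interval averages unlike responses of the batches, and in batch A alone it was called higher.

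**Figure D5:**
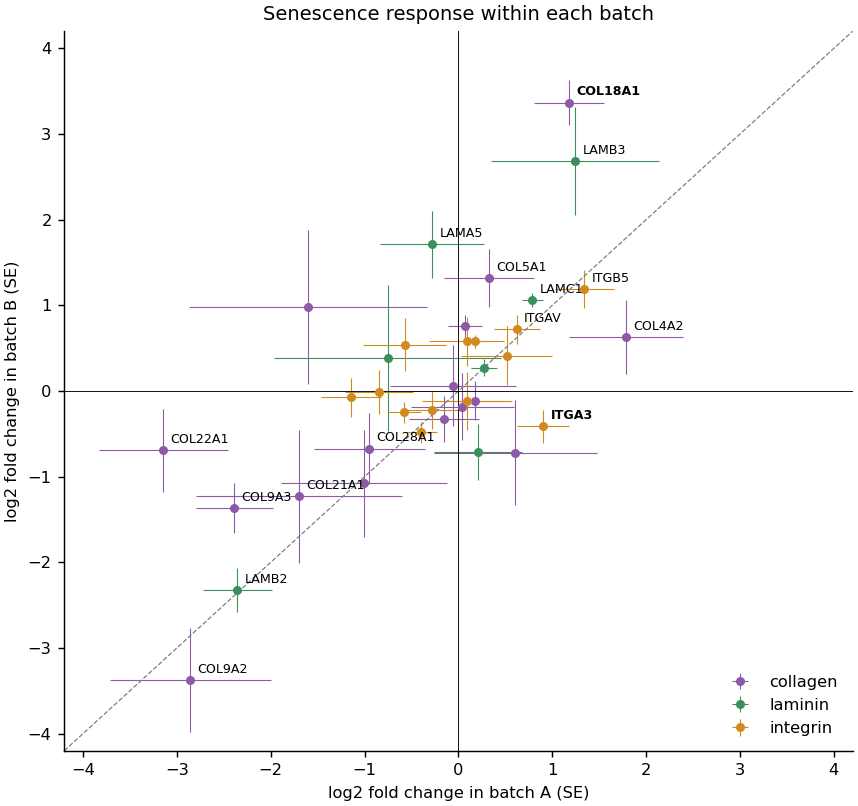
Log2 fold change upon senescence in batch A (horizontal, 2 libraries per group) and in batch B (vertical, 4 per group) for 36 of the 37 tested genes, with SE bars and the line of equality. Called genes are named, and COL18A1 (1.18 and 3.37) and ITGA3 (0.90 and -0.41), in bold, passed the interaction test.

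The batches themselves differed for most of these genes. In the non-senescent libraries alone, 13 genes (35.1%) were higher and 13 (35.1%) lower in batch B than in batch A, against 24.7% and 25.1% of all tested genes. Examples chosen after their values were seen are COL3A1 (4.50 ± 0.75 SE, log2, B minus A), COL6A3 (4.08 ± 0.33), COL4A2 (3.24 ± 0.53) and LAMC1 (1.59 ± 0.10), which were higher in batch B. ITGA7, a receptor for laminin best known in muscle, was lower in B (-3.20 ± 0.31), as was COL27A1 (-1.40 ± 0.16). ITGA7 had 148 and 140 normalised read counts in the non-senescent libraries of batch A and 11.0 to 17.5 in those of batch B. For COL6A3 and ITGA7 the change with senescence was smaller than the difference between batches and was not called in the fit over both batches. In batch A alone ITGA7 was called lower, with a log2 fold change of -0.84. What else differed between the batches is not given in the sources used here, so culture and library preparation cannot be told apart. The first principal component of the 13847 tested genes held 57.6% of the variance.

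Other genes of the matrix and its receptors changed on both sides too. Of 26 tested genes for the synthesis and cross-linking of collagen, 4 were higher and 4 lower (median 0.08). LOXL4, a lysyl oxidase that cross-links collagen, rose with a log2 fold change of 2.28 ± 0.16 (SE), while CRTAP (-1.61 ± 0.20) and COLGALT1 (-0.70 ± 0.16), which modify collagen chains in the endoplasmic reticulum, fell. Of 17 tested basement membrane and matrix proteins, 5 were higher and 5 lower (median -0.12). FRAS1 had a mean of 2.86 normalised read counts in non-senescent cells, and TNN 4.17 and NID1 4.93 in senescent cells. These genes reached the filter only through the other group, so their calls follow in part from it. FBLN1, a fibulin of basement membranes, changed by -2.63 ± 0.27, MFGE8, a ligand of alpha V integrins, by -1.35 ± 0.27, and SMOC1, a calcium-binding matrix protein, by 1.12 ± 0.17 (SE). NID1, FN1, EDIL3 and VTN were picked after their values were seen. NID1, the nidogen that binds the laminin gamma 1 chain, went from 22.4 to 4.93 normalised read counts in the mean. Its log2 fold change of -2.04 ± 0.39 (SE) is given as a description, since 4.93 is under the filter. FN1, fibronectin, fell by 1.08 ± 0.29 (SE) and EDIL3, an RGD protein bound by alpha V integrins, rose by 0.65 ± 0.14 (SE) on the log2 scale. VTN, vitronectin, was not called (-0.11 ± 0.19 SE). VTN moved by -1.03 for batch A and 0.35 for batch B, and the interaction had a limma adjusted p of 0.00168.

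Of 26 tested genes of the adhesion complex inside the cell, 4 were higher and 1 lower (median 0.14). PARVB, a parvin that links integrin-linked kinase to actin, rose by 1.96 ± 0.12 and DOCK1, a RAC activator, by 1.17 ± 0.18, and RSU1, a partner of the same kinase complex, fell by 0.89 ± 0.10 (SE, log2). Of 16 tested other matrix receptors and integrin partners, 5 were higher and 4 lower (median 0.07). Of the higher genes SDC3, with a mean of 4.85 normalised read counts in non-senescent cells, passed the filter only through its senescent libraries. HMMR, a hyaluronan receptor that also acts on the mitotic spindle, fell by 2.47 ± 0.22, SDC4, a syndecan, by 1.36 ± 0.29, and DDR2, a collagen receptor kinase, by 1.25 ± 0.32 (SE, log2). Its relative DDR1 rose by 0.74 ± 0.07 and BCAM, a receptor of the laminin alpha 5 chain, by 1.16 ± 0.12, both named after their values were seen. Each of the 4 lists, with 26, 17, 26 and 16 tested genes, had 2 genes past the interaction test of batch and group. This is to be read beside 4.21% of all tested genes. CD151, picked after its values were seen, was among them, with 1.19 for batch A and -0.63 for batch B (limma interaction adjusted p 0.00015). For the genes described as changed, adjusted p-values for senescence were under 0.1 in limma. The shares called are to be read beside 11.6% higher and 11.8% lower over all genes.

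Markers of cells that make much matrix in the pancreas were low. The 8 fibroblast and stellate cell markers summed to 1.40 to 13.9 ppm of all reads in non-senescent and 1.17 to 3.11 in senescent libraries. PDGFRB had 0 reads, RGS5 with 172 and DCN with 59 had the most, and 1 of the 8 was tested. Of 8 endothelial markers, VWF, PLVAP, TEK and CLDN5 had no reads, and EMCN with 186 and PECAM1 with 96 had the most. Their sum was 1.47 to 5.59 and 0.919 to 5.99 ppm of all reads, and 2 were tested and not called. Leukocyte markers summed to 3.38 to 7.49 and 2.34 to 5.66 ppm of all reads, with CSF1R, CD3E and TYROBP at 0 reads. CD68 with 283 reads and PTPRC with 94 had the most. Of 2 tested leukocyte markers 1 was called lower, beside 11.8% of all tested genes. The 8 duct markers, led by KRT19, summed to 35.6 to 55.2 ppm of all reads in non-senescent and 10.9 to 22.7 in senescent libraries. The 8 acinar markers, led by CPA1, summed to 6.31 to 11.6 and 19.1 to 35.0. Neither list overlapped between the groups, and their part in the results for collagens, laminins and integrins was not tested. The 8 beta-cell markers were all tested, with 4 higher and 1 lower, where 11.6% of all tested genes were called higher and 11.8% lower. These markers summed to 2987 to 6304 ppm of all reads before and 8142 to 25814 after senescence.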

How the data were processed

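Poly(A) RNA of 12 libraries, 6 per group, was read by CEL-seq2. By the study's methods and the submitters' processing notes the authors trimmed reads with Cutadapt, counted them with Salmon 0.13.1 on GRCh38 and normalised them with DESeq2. The deposited values are a signal per gene, reads divided by 1 size factor per library. The annotation, the use of strand and whether molecular identifiers were collapsed are not given in the sources used here, so reads may not be independent molecules. Salmon divides reads among similar transcripts, and the pseudogenes COL11A2P1 and ITGB1P1 were listed at 0. The file also holds the authors' own fold changes and p-values, which were not used. All 196021 non-zero values were whole multiples of the value of 1 read (100%, relative tolerance 1e-06), so reads were recovered. Totals ran from 4672924 to 17106776.

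Groups were compared with limma 3.58.1 (R 4.3.3, intensity trend) on log2(value + 1), for 13847 genes with a mean of at least 5, with batch and group as terms. Fold changes on this scale understate those of low genes. Calls needed a p under 0.1 after Benjamini-Hochberg adjustment and a fold over 1.5, and interactions of batch and group the same p limit. The batch difference among non-senescent libraries came from the same cell means. The limma fit with batch and group as terms was tested on simulated counts, and the other procedures were not. edgeR 4.0.16 (quasi-likelihood) and DESeq2 1.42.0 on the recovered reads, other pseudocounts, filters and scalings, no batch term, each batch alone, a replicate block, no trend and leaving out each library were the alternatives. Single-library values are given for called genes with a mean of at least 20, for the 2 most read genes per family and for genes past the interaction test. Named pathway genes were the 3 largest called changes per list with a mean of at least 20. Others of these lists were named after their values were seen. The genes and lists were chosen with earlier results of these data known. Of the tested genes, 1 is counted and not reported here singly. Of 4 pathway lists, CCN1 and CCN2 were not matched. Positions came from GENCODE 44 on GRCh38 (82 of 82 placed) and upstream sequences from RefSeq.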

Additional observations from a re-analysis of the deposited data

Results flagged for a closer look

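In 216 groups of libraries tested for 1 value far from the others, chance would flag about 1 in 20, and 3 were flagged, each among the 4 senescent libraries of batch B. COL21A1 stood at 4.85 normalised read counts in senescent B1 and at 0 in the other 3 libraries. COL8A1 was at 0 in senescent B2 and at 6.23 to 9.69 in the others. BCAM was at 353 in senescent B1 and at 301 to 306 in the others.

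Senescence responses were unlike in the 2 batches (limma interaction, adjusted p under 0.1) for 2 collagen, laminin or integrin genes. The same held for 4 of the other called genes named. On the log2 scale, with the response of A taken from that of B, the difference was 2.19 for COL18A1 and -1.32 for ITGA3. It was 0.88 for LOXL4 (1.69 in A and 2.57 in B), 1.76 for MFGE8 (-2.52 and -0.77), -0.707 for BCAM (1.63 and 0.92) and -0.678 for PARVB (2.41 and 1.74). Only ITGA3 changed sign between batches among these 6. VTN and CD151, named above and not called, also passed this test and changed sign. Batch A had 2 libraries per group, and the part of depth or library preparation in these differences was not tested.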

How the results depend on the processing

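Of the 14 called genes, 6 (COL18A1, LAMB3, ITGB5, LAMB2, COL9A2 and COL9A3) kept their direction and their call in every alternative in which they were tested, LAMB3 having passed the filter only through its senescent libraries. Of the 17 called genes of the pathway lists given with an SE, 13 did, the exceptions being COLGALT1, FN1, RSU1 and EDIL3. NID1, among the 13, had a senescent mean under the filter. edgeR and DESeq2 each called 8 genes higher and 6 lower, with COL8A1 in place of COL28A1. A filter at a mean of 20, which tests 24 of the 37 genes, left 5 higher and 3 lower genes, and 8 genes higher in batch B than in batch A among non-senescent libraries in place of 13. Without the batch term 4 genes were higher and 3 lower, as LAMC1, ITGAV, LAMA5, COL4A2, COL22A1, COL21A1 and COL28A1 lost their calls. Batch A alone gave 5 higher and 10 lower genes and batch B alone 3 lower ones. The fit of batch A added calls of COL14A1, COL8A1, ITGA2, ITGA3, ITGA7 and LAMA1. The 2 genes with an interaction became 4 without a filter and 1 without the trend (COL18A1). Leaving out 1 library at a time gave 0 to 4. It was COL18A1 alone without non-senescent A2 or senescent A1, and COL18A1 and COL4A2 without non-senescent A1. There were 0 without senescent A2 and 4 without senescent B1. The interaction of ITGA3 was thus lost in each fit that left out a batch A library. edgeR gave 3, with COL22A1, at the same limit. Leaving out 1 library gave 8 to 9 higher and 4 to 6 lower genes, and the genes lower in batch B among non-senescent libraries then numbered 6 to 12, with 6 without non-senescent A1 and 7 without A2 (13 with all libraries). The alternatives for the batch difference were chosen after the data were seen.

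The replicate block gave 8 higher and 6 lower genes, with COL8A1 gained and COL21A1 lost. Libraries with the same number did not deviate together (r from -0.051 to 0.016 across genes), so the numbers were not taken to pair the libraries, and the block changed no other call of the 37 genes.

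The sign turned in some settings for genes that were not called, and for LAMA5. In batch A alone the log2 fold change was -1.60 for COL14A1, 0.042 for COL1A1, -0.055 for COL5A2, 0.172 for COL6A1, -0.573 for ITGA11, 0.093 for ITGAL, -0.754 for LAMA1, 0.21 for LAMA4 and -0.279 for LAMA5, and in batch B alone it was -0.414 for ITGA3. At a pseudocount of 5 it was -0.050 for COL14A1, -0.0085 for COL5A2 and -0.056 for LAMA1, and at the same total per library -0.076 for COL5A2, -0.080 for ITGA3 and -0.094 for LAMA1. edgeR gave -0.258 for COL14A1, -0.13 for COL5A2, 0.031 for COL6A1, 0.040 for ITGAL and -0.079 for LAMA1, and DESeq2 gave -0.131, 0.040, 0.056 and -0.016 for the last 4. Leaving out 1 library gave -0.35 to 0.56 for COL14A1, -0.24 to 0.073 for COL1A1, -0.58 to 0.068 for COL3A1, -0.28 to 0.29 for COL5A2, -0.096 to 0.073 for COL6A1, -0.12 to 0.16 for ITGA3, -0.22 to 0.12 for ITGAL and -0.52 to 0.37 for LAMA1. The causes were not tested.

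Counting error limits the lower genes most: in batch B 1 read is worth 1.05 to 1.51 normalised read counts, against 0.449 to 0.795 in batch A.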
